A study of Mus musculus with 22 samples.

Results

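The interferon-gamma axis was followed through 9 genes: the ligand Ifng, the receptor chains Ifngr1 and Ifngr2, the kinase Jak2, the transcription factors Irf1 and Irf8, the inhibitor Socs1, and the T cell chemokines Cxcl9 and Cxcl10. They were picked by name from the 54838 genes of the count table, matched through their Ensembl identifiers, and read in 4 conditions (GRWT or GRDim mice on water or on zinc), apart for libraries with and without much smooth muscle. All 9 genes passed the filter on low counts, among 16389 genes tested. Membership used no measured value of these genes, but the group was proposed with earlier results of the same libraries known.

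The study asked how zinc in the drinking water acts on the gut of mice and whether this needs an intact glucocorticoid receptor (GR). GRWT mice carry the normal receptor. GRDim mice are homozygous for a point mutation that weakens its dimerization in every cell of the animal, which expression values cannot check. Both were on the FVB/N background, 8 to 14 weeks old, and drank normal water or, for 7 days, 25 mM zinc sulfate. GRWT gave 5 libraries on water and 5 on zinc, and GRDim gave 6 on each, 22 in all. The label ileum stands on 12 of them and the label IEC (intestinal epithelial cells) on 10. The series description also mentions dexamethasone, which no label names. No label says that the libraries come from separate animals, so p-values measure only the spread between these libraries. Library totals ran from 13149951 to 15620744 counts.

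The tissue labels did not match the muscle content. Myh11, the smooth-muscle myosin heavy chain, was over 100 CPM (counts scaled to a common library total) in 12 libraries, called muscle-rich here, and below it in the 10 muscle-poor ones. Of the libraries labelled IEC, 7 were muscle-rich, and of those labelled ileum, 7 were muscle-poor. Within GRDim mice the label runs against the drinking water. The 3 muscle-rich water libraries are labelled IEC and the 3 muscle-rich zinc libraries ileum, while the muscle-poor ones carry the reverse labels, so zinc and the label cannot be told apart there. Each condition held 3 muscle-rich libraries, with 3 muscle-poor ones for GRDim and 2 for GRWT. On zinc all muscle-poor GRDim libraries are labelled IEC and all muscle-poor GRWT libraries ileum. Genotype and label cannot be told apart there either. Muscle-rich GRWT libraries carry both labels on either drinking water. Muscle-rich GRDim ones carry a single label on each, so those genotype comparisons are not balanced for it. A pair of libraries stood apart. GRWT zinc ileum replicate 3 (muscle-poor) had 18.2 CPM of the ileal gene Fabp6, against at least 3967 CPM in any other library. GRWT zinc ileum replicate 1 (muscle-rich) had a summed level of 206 CPM over 6 B cell markers, against at most 37.9 CPM in any other library.

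Interferon gamma is made mainly by T cells and natural killer (NK) cells, which are plentiful among the cells of the gut epithelium. It binds a receptor built of Ifngr1 and Ifngr2 chains, the attached JAK kinases activate a STAT transcription factor, and this binds GAS elements in target promoters. Irf1 is an early target and switches on further genes through ISRE elements, Irf8 acts in the same way and is best known from myeloid and B cells, Socs1 blocks the JAK kinases as a feedback inhibitor, and Cxcl9 and Cxcl10 are secreted to attract T cells that carry the receptor Cxcr3.

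On mouse build GRCm38, Ifng (ENSMUSG00000055170) lies at chr10:118441046-118445892 and Ifngr1 at chr10:19591949-19610229. Ifngr2 lies at chr16:91547072-91565623, Jak2 at chr19:29251828-29313080, Irf1 (ENSMUSG00000018899) at chr11:53770014-53778374 and Irf8 at chr8:120736358-120756694. Those 6 are on the plus strand. The minus strand holds Socs1 (chr16:10782240-10785536) and the neighbouring chemokines Cxcl9 (chr5:92321347-92328079) and Cxcl10 (chr5:92346638-92348889). Ifng shares 336 exon bases with the predicted gene Gm49751, which held 10 counts over all libraries. Irf1 shares 135 with Gm17334 (197 counts) and Cxcl10 133 with Art3 (723 counts), both on the opposite strand. The strand setting of the counting is not given in the sources used here, so a few reads of these genes could belong to their partners.

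RefSeq promoter windows (GRCm38.p6) were present for all 9 genes and were searched over the 250 bases before the start. The GAS letters TTCNNNGAA, which read the same on both strands, occurred in the windows of Irf1, Irf8 and Ifng and in 7.02% of all 32851 windows. The ISRE core, GAAA followed after any 2 bases by GAAA and searched on both strands, occurred in those of Cxcl10 and Socs1 and in 2.98% of all windows. Neither was found for the other 4 genes, which says only that these letters are not in them. The stretches around the matches in Irf1, Irf8, Socs1 and Cxcl10 follow, because they hold the letters through which the pathway is known to act, read 5′ to 3′ on the strand of the gene, with the matches in capitals. A match is a description and no measurement of binding.
Irf1, chr11:53769884-53769972: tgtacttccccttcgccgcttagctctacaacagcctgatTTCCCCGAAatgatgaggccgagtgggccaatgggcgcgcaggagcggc
Irf8, chr8:120736147-120736253: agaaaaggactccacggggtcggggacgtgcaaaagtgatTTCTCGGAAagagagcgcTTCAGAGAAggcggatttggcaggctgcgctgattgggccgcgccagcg
Socs1, chr16:10785564-10785659: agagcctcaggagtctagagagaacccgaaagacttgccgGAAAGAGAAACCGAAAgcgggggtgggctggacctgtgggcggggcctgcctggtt
Cxcl10, chr5:92349053-92349139: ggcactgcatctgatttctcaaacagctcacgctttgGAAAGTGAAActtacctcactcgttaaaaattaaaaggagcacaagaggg
The single GAS match of Irf1 lies 90 to 82 bases before the start, and Irf8 has 2 of them, at 171 to 163 and at 153 to 145 bases. In Socs1 a pair of ISRE matches overlap, from 83 to 68 bases before the start. The match of Cxcl10 lies further out, at 213 to 204 bases. That of Ifng lies at the edge of the window, at 249 to 241 bases.

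Per kilobase of exon, which allows levels of different genes to be compared, the receptor chains, Irf1 and Jak2 were the most abundant of the 9 transcripts and Ifng the least. Over the muscle-rich libraries the median was 76.5 CPM per kb for Ifngr1, 66.4 for Ifngr2, 63.9 for Irf1, 39.4 for Jak2 and 17.0 for Irf8. Cxcl9 followed at 3.94, Socs1 at 1.51, Cxcl10 at 1.24 and Ifng at 0.351 CPM per kb. In the muscle-poor libraries Irf1 led with 104 CPM per kb, and Socs1 stood above Cxcl9 with 4.32 against 2.99. Within the muscle-rich libraries the order depended on the condition. Irf1 had the highest mean per kb in GRDim on water (98.1) and on zinc (78.0), but stood below both receptor chains in GRWT on water (49.9) and also below Jak2 (39.4) in GRWT on zinc (37.8). All other levels are CPM scaled by the trimmed mean of M-values (TMM) and are compared only within a gene. The scaling mattered most for GRWT zinc ileum replicate 3, whose values it raised by over 1.5 times against scaling by the library total.

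**Figure D1:**
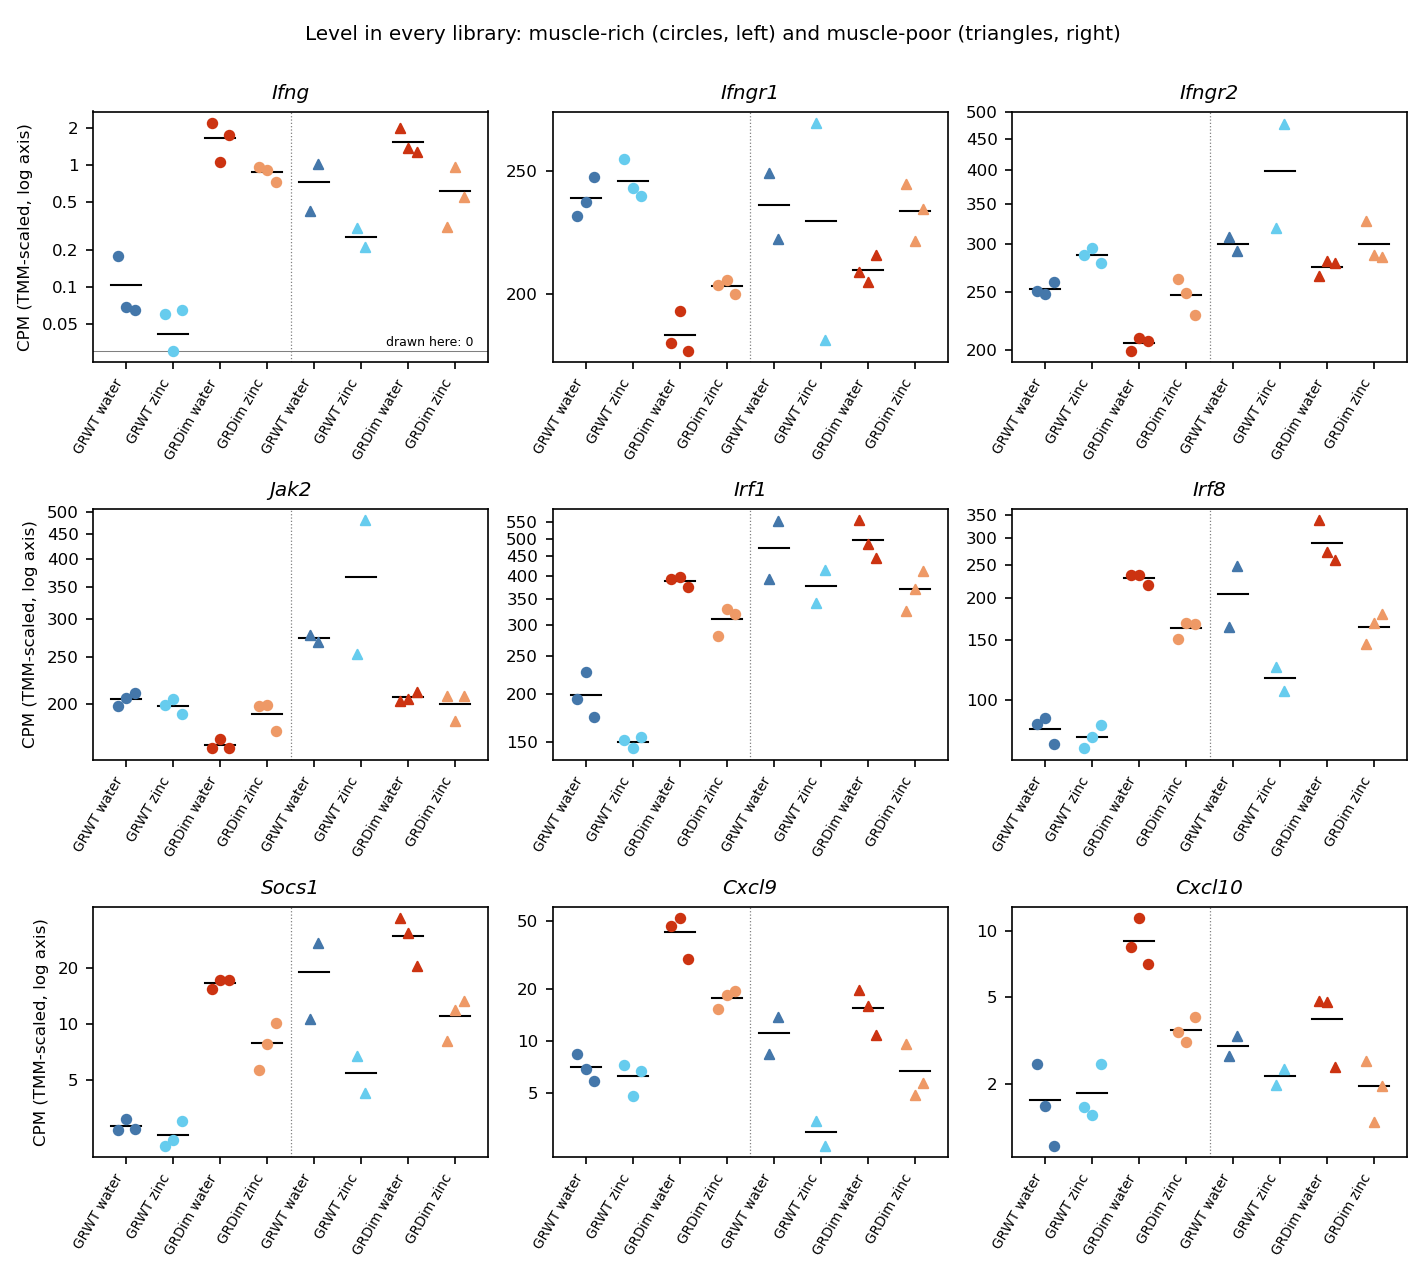
Level of each of the 9 genes in every library, in TMM-scaled CPM on a log axis, with a bar for the mean of each condition; circles on the left are muscle-rich and triangles on the right muscle-poor libraries. On the left, Ifng, Irf1, Irf8, Socs1, Cxcl9 and Cxcl10 were higher in all 3 GRDim water libraries than in all 3 GRWT water libraries, while the receptor chains and Jak2 lay in a narrow range.

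The ordering of the 8 cells (condition by muscle class) differed between the genes. Cxcl9 and Cxcl10 were highest in muscle-rich GRDim water libraries, at 43.0 ± 11.5 and 9.04 ± 2.26 CPM (SD, n = 3), and neither overlapped the next cell, which for Cxcl9 was muscle-rich GRDim zinc at 17.8 ± 2.18 CPM and for Cxcl10 muscle-poor GRDim water at 3.97 ± 1.36 CPM (SD, n = 3). Irf1, Irf8 and Socs1 were highest in muscle-poor GRDim water libraries, at 496 ± 56.2, 290.1 ± 42.3 and 29.6 ± 8.34 CPM (SD, n = 3). For Irf1 each of the 5 highest cells overlapped the next in the order, and only the muscle-rich GRWT libraries stood below, on water at 198 ± 26.8 and on zinc at 150.4 ± 5.08 CPM (SD, n = 3). The lowest cell was muscle-rich GRWT zinc for Ifng, Irf1, Irf8 and Socs1, muscle-poor GRWT zinc for Cxcl9 and muscle-rich GRWT water for Cxcl10. Of the 7 neighbouring pairs in the order, 3 overlapped for Ifng, 4 for Irf8, and 5 each for Irf1, Socs1, Cxcl9 and Cxcl10.

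The first comparison asked how the GRDim mutation changed the axis without zinc. In muscle-rich libraries on water, 6 of the 9 genes were higher in GRDim than in GRWT and none was called lower. A gene was called when its adjusted p was under 0.05 and its log2 fold change (LFC) beyond 0.8 (edgeR quasi-likelihood test, Benjamini-Hochberg adjustment over all genes). This held for 4.62% of all genes in the higher and 4.05% in the lower direction. The 6 were the ligand, both transcription factors, the inhibitor and both chemokines. The median LFC of the 9 genes was 1.47, against -0.02 over all genes tested.

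The ligand was near the floor of detection in GRWT mice. Ifng had 34, 16 and 30 counts in the muscle-rich GRDim water libraries and 3, 1 and 1 counts in the GRWT ones. The ranges did not overlap, and each GRWT library was at or under 3 counts, the floor used here (0.192 to 0.228 CPM by library). The summed counts gave a 15.8-fold higher level in GRDim, with an exact 95% interval from 6.51 to 50.1 that covers counting error only. The fitted LFC of 3.87 ± 0.52 (SE; adjusted p = 7.44e-05) depends on the prior count at such low levels. Ifng passed the filter on low counts through the GRDim libraries, so its selection for the test was not independent of its difference here and on zinc. It was also called in both without any filter.

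The receptor chains and the kinase were not called and lay lower in GRDim. Ifngr1 read 183, 194 and 180.3 CPM in GRDim and 230.5, 236 and 247 CPM in GRWT, an LFC of -0.36 ± 0.10 (SE) with an adjusted p of 0.0188, which stayed short of the fold threshold. Ifngr2 (LFC -0.30 ± 0.10, adjusted p = 0.0509) and Jak2 (LFC -0.32 ± 0.14, adjusted p = 0.126) missed the test. Even so, all 3 GRDim libraries lay below all 3 GRWT libraries for each of these genes, a pattern that 27.2% of all genes showed.

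The transcription factors, by contrast, were higher in GRDim. Irf1 read 395, 399 and 376 CPM in GRDim and 194, 227 and 174 CPM in GRWT, an LFC of 0.97 ± 0.13 (SE, adjusted p = 7.58e-05). Irf8 read 233, 233 and 218 CPM in GRDim and 84.5, 88.1 and 73.9 CPM in GRWT (LFC 1.47 ± 0.14, adjusted p = 2.14e-06). Neither gene overlapped between the genotypes, and for both the 3 GRDim libraries lay close together.

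Socs1 and the chemokines showed larger fold changes at lower levels. Socs1 read 15.5, 17.3 and 17.2 CPM in GRDim and 2.71, 3.09 and 2.73 CPM in GRWT (LFC 2.55 ± 0.33, adjusted p = 5.16e-05). Cxcl9 read 46.6, 52.2 and 30.1 CPM in GRDim and 8.42, 6.87 and 5.85 CPM in GRWT (LFC 2.60 ± 0.29, adjusted p = 1.38e-05). Cxcl10 read 8.47, 11.5 and 7.12 CPM against 2.47, 1.58 and 1.04 CPM (LFC 2.40 ± 0.32, adjusted p = 6.47e-05). In all, 6 of 9 genes were higher in every GRDim library than in every GRWT library, as were 25.9% of all genes. The 6 calls held in each fit that left out 1 library. When muscle class entered only as an additive covariate, Irf1 fell short of the fold threshold with an LFC of 0.56, and with the tissue label in place of the muscle class Irf1 (adjusted p = 0.265) and Socs1 (0.091) were not called.

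T cell transcripts differed between the same libraries. The summed level of 14 T and NK cell markers was 462 to 537 CPM in the muscle-rich GRDim water libraries and 81.8 to 123 CPM in the GRWT ones, and 12 of the 14 were called higher (4.62% of all genes were), with a median LFC of 2.08. Examples were Cd8a (LFC 2.27), the integrin Itgae of intraepithelial T cells (1.99), Nkg7 (2.05) and Cd5 (3.25). Of 14 macrophage and dendritic cell markers 1 was called higher, Xcr1 of cross-presenting dendritic cells (LFC 1.42), with sums of 285 to 306 against 174 to 228 CPM. None of 6 B cell markers was called (31.2 to 37.9 against 12.3 to 14.6 CPM), and of 10 epithelial genes 2 were lower, Fabp2 (LFC -1.39) and Sis (-1.03), against 4.05% of all genes. The epithelial sum was 15461 to 16679 CPM in GRDim and 19360.2 to 20343 CPM in GRWT, and the sum of ileal segment genes 4799 to 6118 against 7824 to 9492 CPM, both without overlap. Nor did the smooth muscle sum overlap, at 1789 to 2016 CPM in GRDim against 2339 to 2563 CPM in GRWT. The part of these cells in the result was not tested, and in bulk tissue fewer cells of a type and less RNA per cell cannot be told apart.

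In the muscle-poor libraries on water none of the 9 genes was called between the genotypes, where 0.342% of all genes were called in either direction. With edgeR 3 genes had an unadjusted p under 0.05, and with DESeq2 2 genes did, with no call either. No share of all genes is given for these counts. Irf1 read 557, 486 and 446 CPM in GRDim and 393 and 554 CPM in GRWT (LFC 0.07 ± 0.15, SE). Irf8 read 338, 274 and 258 CPM against 164 and 247 CPM (LFC 0.50 ± 0.15, adjusted p = 0.172), and Cxcl9 19.8, 16.0 and 10.8 CPM against 8.39 and 13.8 CPM (LFC 0.48 ± 0.32). Irf8 and Ifng were higher in every GRDim library, as were 18.9% of all genes, whereas Irf1, Socs1, Cxcl9 and Cxcl10 overlapped. Ifngr1, Ifngr2 and Jak2 were lower in every GRDim library, as were 19.3% of all genes. Ifng had 26, 18 and 18 counts in GRDim and 5 and 13 counts in GRWT, a ratio of 2.25 by summed counts (exact 95% interval 1.31 to 4.04, counting error only). Irf8 was called when GRWT water ileum replicate 3 was left out (LFC 0.83), a fit in which the only GRWT library left is assumed to vary like the other groups. This library had the higher value of the GRWT pair for Ifng, Irf1, Irf8, Socs1, Cxcl9 and Cxcl10, and its T and NK marker sum was 489 CPM, against 240.3 CPM in the other GRWT library and 353 to 565 CPM in GRDim.

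The genotype effect on water itself differed between the muscle classes for 5 genes, where 1.31% of all genes passed this test. It was larger in muscle-rich libraries by an LFC of 0.91 ± 0.20 (SE) for Irf1 (adjusted p = 0.0281) and 0.98 ± 0.20 for Irf8 (0.0193). The difference was 1.92 ± 0.45 for Socs1 (0.044), 2.12 ± 0.42 for Cxcl9 (0.0152) and 2.00 ± 0.48 for Cxcl10 (0.0457). For Ifng it was 2.79 ± 0.74 and missed the test (adjusted p = 0.0797). With the tissue label added to the fit 2 of the 9 genes passed, and the count ran from 0 to 6 when single libraries were left out, with 0 without GRWT water ileum replicate 1 or replicate 3.

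**Figure D2:**
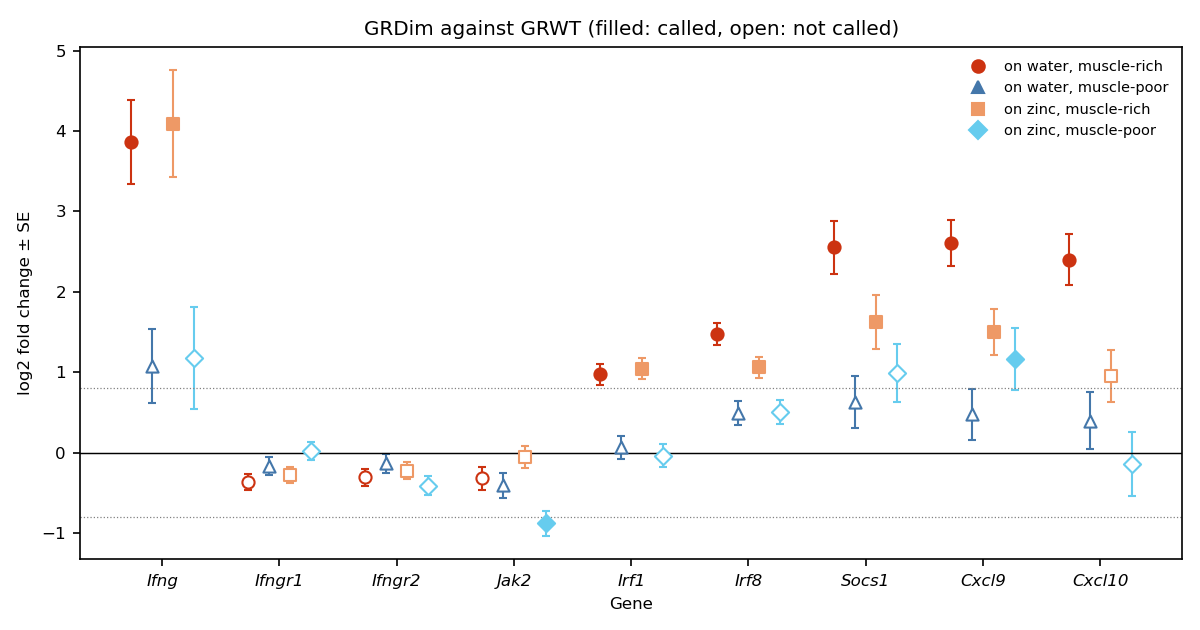
LFC of GRDim against GRWT with its standard error for each gene in 4 comparisons (water or zinc, muscle-rich or muscle-poor libraries); filled symbols were called and dotted lines mark an LFC of 0.8 in either direction. On water, 6 genes lay between 0.97 and 3.87 in muscle-rich libraries and at most at 1.08 in muscle-poor ones.

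The same genotype comparison was made in mice on zinc. In muscle-rich libraries 5 of the 9 genes were higher in GRDim and none lower, where 1.67% of all genes were called higher and 0.671% lower. They were Ifng, Irf1, Irf8, Socs1 and Cxcl9. Ifng had 14, 14 and 11 counts in GRDim and 1, 0 and 1 counts in GRWT, a 19.9-fold ratio by summed counts with an exact 95% interval from 5.15 to 169.9 (counting error only, with all 3 GRWT libraries under the floor). Irf1 read 281, 329 and 320.2 CPM in GRDim against 152, 145 and 155 CPM (LFC 1.04 ± 0.13, adjusted p = 0.000113), and Irf8 151, 169 and 168 against 71.8, 77.4 and 84.3 CPM (LFC 1.06 ± 0.14, adjusted p = 0.00012). Both factors were again higher in every GRDim library, as were 17.2% of all genes.

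Socs1 on zinc read 5.69, 7.87 and 10.1 CPM in GRDim and 2.23, 2.41 and 3.04 CPM in GRWT (LFC 1.63 ± 0.33, adjusted p = 0.00806). Cxcl9 read 15.3, 18.5 and 19.5 CPM against 7.28, 4.81 and 6.73 CPM (LFC 1.50 ± 0.29, adjusted p = 0.00486). Cxcl10, at 3.47, 3.12 and 4.04 CPM against 1.56, 1.44 and 2.46 CPM, missed the test with an LFC of 0.96 ± 0.33 and an adjusted p of 0.11, though its ranges were apart. The T and NK marker sum was 268 to 279.6 CPM in these GRDim libraries and 77.9 to 119 CPM in the GRWT ones. The 5 calls held without any single library, GRWT zinc ileum replicate 1 included, and none held with the tissue label in place of the muscle class or with a replicate block.

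In muscle-poor libraries on zinc, Cxcl9 was called higher (9.63, 4.85 and 5.69 CPM in GRDim against 3.44 and 2.45 CPM in GRWT, LFC 1.17 ± 0.38, adjusted p = 0.0409; 1.76% of all genes were called higher). Jak2 was called lower (207, 185 and 208 CPM against 254 and 479.7 CPM, LFC -0.88 ± 0.16, adjusted p = 0.00431; 6.08% were called lower). The GRDim libraries of this comparison are all labelled IEC and the GRWT ones all ileum, so genotype and label cannot be told apart. Neither call held with the label added to the fit. Both calls also ended when GRWT zinc ileum replicate 3, the library with little Fabp6, was left out. The LFC was then 0.99 for Cxcl9 and -0.31 for Jak2. That fit leaves 1 muscle-poor GRWT zinc library, which is assumed to vary like the other groups. The call of Cxcl9 was lost in 6 further fits without 1 library, its LFC running from 0.82 to 1.46. GRWT zinc ileum replicate 3 alone carried the Jak2 value of 479.7 CPM. Scaled by the library total it had 309 CPM, against 234 CPM in the other muscle-poor GRWT zinc library. Its 477 CPM of Ifngr2, against 320.1 CPM in the other one, became 307 against 295 CPM by library total. The genotype effect on zinc differed between the muscle classes for Irf1 (LFC larger by 1.08 ± 0.20 in muscle-rich libraries, adjusted p = 0.00779) and Jak2 (by 0.82 ± 0.21, 0.0442), where 2.87% of all genes passed. This count of 2 changed in 21 of the 22 fits without 1 library, to 1 in most. It moved further down without GRWT zinc ileum replicate 3 and up without replicate 2. Each of these fits leaves 1 muscle-poor GRWT zinc library, and the second leaves the one with little Fabp6.

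The second question was what zinc did to the axis. In GRDim mice the mean level of Ifng, Irf1, Irf8, Socs1, Cxcl9 and Cxcl10 was lower on zinc in both muscle classes, though few of these differences were called. In the muscle-rich libraries edgeR called 1 of the 9 genes and DESeq2 3, with 7 at an unadjusted p under 0.05 by either tool. The DESeq2 and unadjusted counts are given without the share of all genes, so they have no baseline. The edgeR call was Cxcl9, which fell from 46.6, 52.2 and 30.1 CPM on water to 15.3, 18.5 and 19.5 CPM on zinc (LFC -1.27 ± 0.27, adjusted p = 0.0481). In this comparison 0.0671% of all genes were called lower. Cxcl10 just missed, at 8.47, 11.5 and 7.12 CPM on water and 3.47, 3.12 and 4.04 CPM on zinc (LFC -1.35 ± 0.30, adjusted p = 0.0578).

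The others of this comparison did not pass the test. Socs1 had an LFC of -1.08 ± 0.30 (adjusted p = 0.135), Irf8 of -0.49 ± 0.13 (0.128) and Irf1 of -0.33 ± 0.13 (0.367). Ifng went from 80 counts in all to 39, a ratio of 0.499 (exact 95% interval 0.331 to 0.741, counting error only; adjusted p = 0.368). All 6 of these genes were lower in every zinc library than in every water library, a pattern of 14.5% of all genes, and Ifngr1, Ifngr2 and Jak2 were higher in every one, as were 17.1% of all genes. The T and NK sum was 462 to 537 CPM on water and 268 to 279.6 CPM on zinc, with 0 of 14 markers called and a median LFC of -0.53. Only 0.0671% of all genes were called lower here. The macrophage and dendritic cell sum was 285 to 306 CPM on water and 215 to 271 CPM on zinc. The B cell sum was 31.2 to 37.9 and 23.2 to 30.9 CPM. The epithelial sum was higher on zinc, at 18682 to 20782 against 15461.3 to 16679.5 CPM. The part of these cells was not tested. The call of Cxcl9 was lost in 15 of the 22 fits that left out 1 library, including each of the 6 compared here, and its LFC there ran from -1.48 to -1.11.

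In muscle-poor GRDim libraries 3 genes fell with zinc, against 0.458% of all genes. Irf8 read 338, 274 and 258 CPM on water and 146, 169 and 179 CPM on zinc (LFC -0.82 ± 0.13, adjusted p = 0.00552). Socs1 read 37.1, 31.0 and 20.6 CPM on water and 8.15, 11.9 and 13.2 CPM on zinc (LFC -1.41 ± 0.29, adjusted p = 0.0246). Cxcl9 fell from 19.8, 16.0 and 10.8 CPM to 9.63, 4.85 and 5.69 CPM (LFC -1.21 ± 0.29, adjusted p = 0.049). The 3 genes were lower in every zinc library, as were 11.6% of all genes, with only a narrow gap for Cxcl9.

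Irf1 (LFC -0.42 ± 0.13, adjusted p = 0.125) and Cxcl10 (-1.02 ± 0.33, 0.143) were not called in these libraries, nor were the receptor chains and Jak2, whose LFC lay between -0.05 and 0.15. Ifngr1 and Ifngr2 were higher in every zinc library, as were 12.5% of all genes. Ifng went from 62 counts to 24, a ratio of 0.393 (exact 95% interval 0.235 to 0.639, counting error only), and was not called (adjusted p = 0.125). The T and NK sum was 353 to 565 CPM on water and 211 to 319 CPM on zinc. When the muscle-poor libraries were fitted alone none of the 3 calls held, with an LFC of -0.81 for Irf8 (adjusted p = 0.256), -1.41 for Socs1 and -1.20 for Cxcl9. Single libraries moved the count between 0 and 5. Without GRDim water ileum replicate 1 or GRDim zinc IEC replicate 4 Irf8 came under the fold threshold (LFC -0.69 and -0.74), Socs1 lost its call in 5 of the 22 such fits and Cxcl9 in 15.

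**Figure D3:**
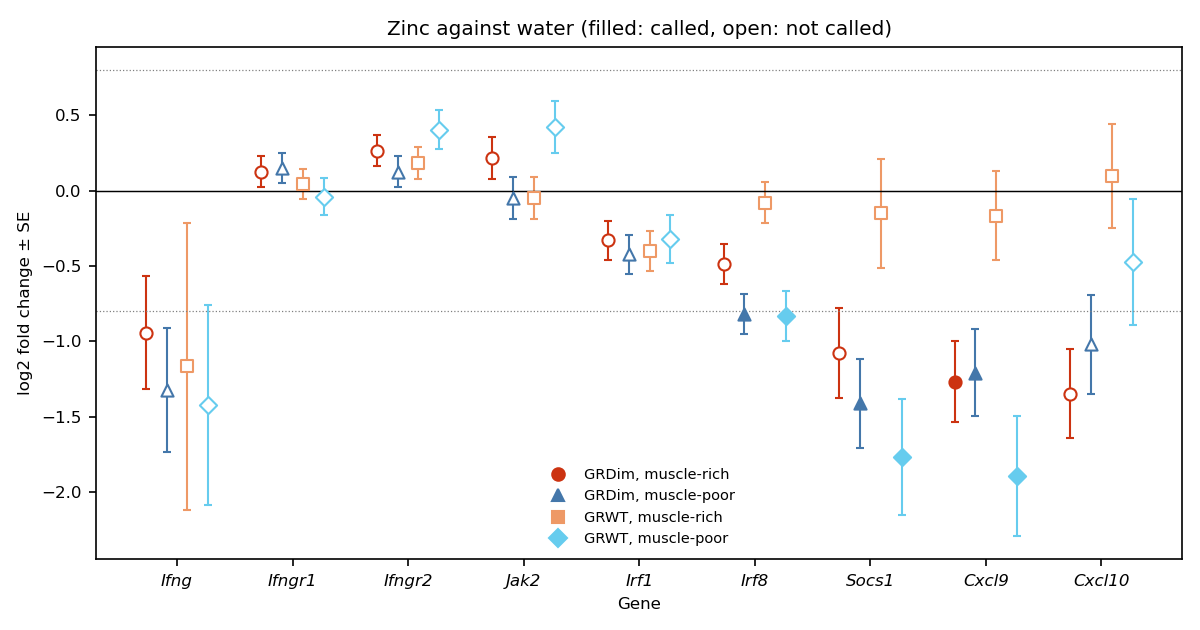
LFC of zinc against water with its standard error for each gene, in GRDim and GRWT mice and in muscle-rich and muscle-poor libraries; filled symbols were called and dotted lines mark an LFC of 0.8 in either direction. Irf1 lay between -0.42 and -0.32 in all 4 comparisons without a call, while Socs1 and Cxcl9 reached -1.77 and -1.89 in muscle-poor GRWT libraries.

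In GRWT mice zinc was compared within each muscle class. In the muscle-rich libraries none of the 9 genes was called with zinc, where 0.0732% of all genes were called in either direction. With edgeR 1 gene had an unadjusted p under 0.05, and with DESeq2 1 gene did, without a call (no share of all genes given). Irf1 read 194, 227 and 174 CPM on water and 152, 145 and 155 CPM on zinc, so that it was lower in every zinc library (7.31% of all genes were) at an LFC of -0.40 ± 0.13 (adjusted p = 0.677). Irf8, Socs1, Cxcl9 and Cxcl10 overlapped between water and zinc, with LFC between -0.17 and 0.10. Ifngr2 was higher in every zinc library, as were 7.24% of all genes. Ifng was at or under the floor in all 6 libraries, so no fold is given.

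In the muscle-poor GRWT libraries 3 genes fell with zinc, against 1.24% of all genes. Irf8 read 164 and 247 CPM on water and 125 and 106 CPM on zinc (LFC -0.83 ± 0.16, adjusted p = 0.0114). Socs1 read 10.6 and 27.3 CPM against 6.73 and 4.26 CPM (LFC -1.77 ± 0.38, adjusted p = 0.0138). Cxcl9 read 8.39 and 13.8 CPM against 3.44 and 2.45 CPM (LFC -1.89 ± 0.40, adjusted p = 0.0123). Each was lower in both zinc libraries than in both water libraries, as were 19.8% of all genes. Ifngr2 was higher in both, as were 17.7% of all genes. Ifng went from 18 counts to 6, a ratio of 0.314 (exact 95% interval 0.102 to 0.826, counting error only), and was not called (adjusted p = 0.17).

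All 3 calls rested on 4 libraries. They ended without GRWT zinc ileum replicate 3 and likewise without GRWT water ileum replicate 3, and over the single libraries left out the LFC ran from -1.10 to -0.50 for Irf8, from -2.29 to -0.94 for Socs1 and from -2.21 to -1.49 for Cxcl9. Leaving out either of these replicates leaves 1 library in its arm, which is assumed to vary like the other groups. With the muscle-poor libraries fitted alone the adjusted p was 0.228 for each of the 3. The zinc replicate with little Fabp6 had the lowest Irf8, Socs1 and Cxcl9 of the 4, beside a T and NK marker sum of 513 CPM (330 CPM by library total). The other zinc library had 172 CPM of these markers (159 by library total), and the water libraries 240.3 and 489 CPM (218 and 444). Of 10 smooth muscle markers Synm and Acta2 were called lower with zinc, as was Mrc1 of 14 macrophage and dendritic cell markers (1.24% of all genes). Of 10 epithelial genes Fabp2 and Alpi were called higher (4.59% of all genes). The part of these cells was not tested.

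Whether zinc acted differently in the genotypes was tested as an interaction. None of the 9 genes passed in muscle-rich libraries (1 of all genes passed, 0.0061%) or in muscle-poor ones (0% passed). In muscle-rich libraries 3 of the 9 had an unadjusted p under 0.05 with edgeR and 3 with DESeq2, and in muscle-poor ones 1 with either tool. The unadjusted counts of this paragraph have no share of all genes beside them. In muscle-rich libraries the zinc LFC in GRDim minus that in GRWT was -1.44 ± 0.46 (SE) for Cxcl10 and -1.10 ± 0.40 for Cxcl9, both with an adjusted p of 0.732. The zinc effect did not pass a test between the muscle classes for any of the 9 genes in GRDim (0% of all genes passed, no gene of the 9 with an unadjusted p under 0.05) or in GRWT (0.0183% passed, 4 of the 9 under 0.05) with edgeR. With DESeq2 1 gene passed in GRWT and 0 in GRDim. With edgeR some of the 9 genes also passed in GRWT without GRWT zinc ileum replicate 2. That fit leaves the library with little Fabp6 as the only muscle-poor GRWT zinc library.

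Further genes of the pathway were read from lists, which were also chosen with earlier results known. Of 20 other interferon-gamma target genes, 19 were higher in muscle-rich GRDim water libraries than in GRWT ones (4.62% of all genes were), with a median LFC of 1.71, against -0.02 over all genes. They included Igtp, an immunity-related GTPase (LFC 3.45 ± 0.27), Ido1, the tryptophan-degrading enzyme (2.42 ± 0.15), Tap1, the peptide transporter of antigen presentation (2.38 ± 0.19), and Psmb9, an immunoproteasome subunit (2.07 ± 0.14). The exception was the complement inhibitor Serping1 (LFC 0.45 ± 0.31). In muscle-poor libraries on water 0 of the 20 were called (0.342% of all genes were), with a median LFC of 0.42, against 0.01 over all genes. On zinc 12 of the 20 were higher in muscle-rich GRDim libraries (1.67% of all genes were) and 2 in muscle-poor ones (1.76% of all genes; Nlrc5 and Ciita, regulators of antigen presentation). With zinc, 5 of the 20 fell in muscle-poor GRDim (0.458% of all genes) and 6 in muscle-poor GRWT libraries (1.24%), among them Iigp1 (LFC -2.91 and -3.12) and Gbp2 (-2.10 and -2.06). In muscle-rich libraries 0 were called lower in GRDim (0.0671% of all genes) and 0 in GRWT (0.0122%). There the uncalled LFC was -1.21 for Iigp1 and -1.05 for Gbp2 in GRDim, and -0.20 and -0.28 in GRWT.

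**Figure D4:**
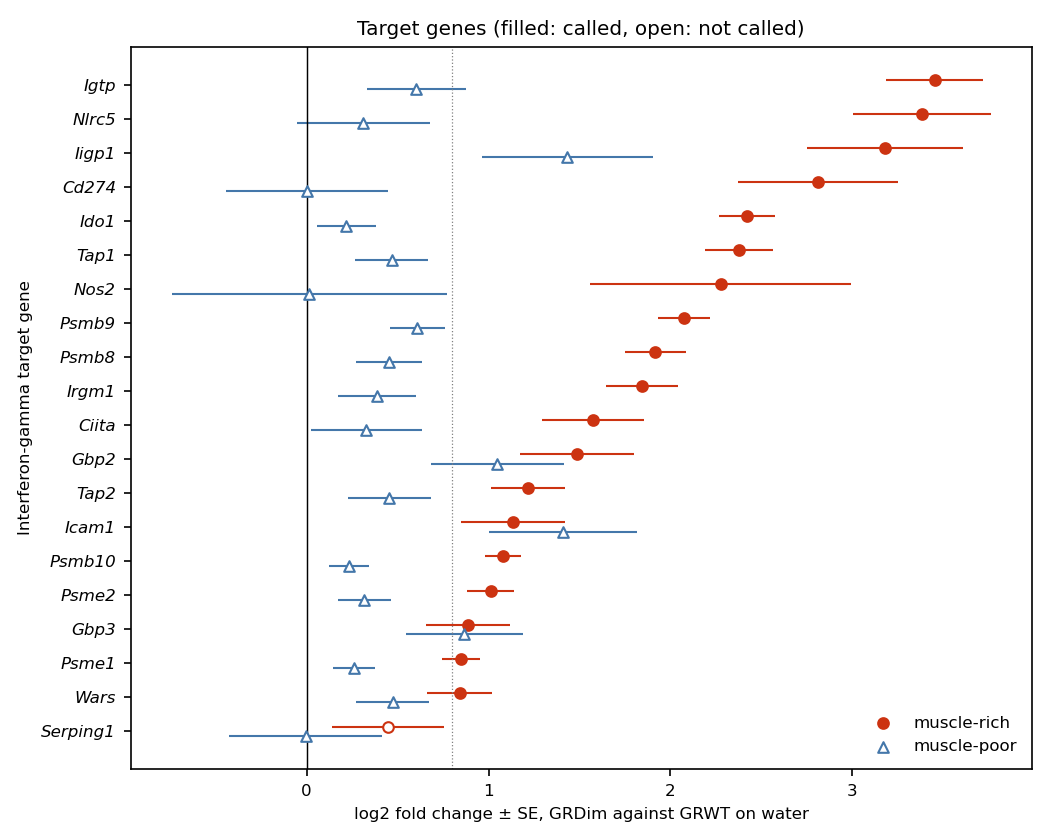
LFC of GRDim against GRWT on water with its standard error for 20 interferon-gamma target genes, in muscle-rich (circles) and muscle-poor (triangles) libraries; filled symbols were called. In muscle-rich libraries 19 of 20 were called higher and in muscle-poor ones 0 of 20.

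Among 14 further T cell chemokines and their receptors, 7 were higher in muscle-rich GRDim water libraries (median LFC 1.11), where 4.62% of all genes were higher. These included the chemokine Ccl5 (LFC 2.42 ± 0.30), the chemokine receptor Cxcr6 (1.50 ± 0.14) and the gut-homing receptor Ccr9 (1.52 ± 0.26). Of 10 tested genes that induce interferon gamma or equip the producing cell, 4 were higher in muscle-rich GRDim water libraries, among them Il12b (LFC 3.66 ± 0.93) and the transcription factor Eomes (2.87 ± 0.70), and 1 was lower, Il15 (-0.99 ± 0.29). Of 17 other kinases, IRF factors and inhibitors 3 were higher, Irf4, Irf5 and Usp18. None of these 3 lists held a called gene in muscle-poor libraries on water, where only 0.342% of all genes were called in either direction. On zinc 4 of the 14 chemokines and receptors were higher in muscle-rich GRDim libraries (1.67% of all genes). In muscle-poor GRDim libraries on zinc 0 were higher, while 2 of the 14 (Cxcl16 and Cxcl11), 3 of the 10 inducers and 2 of the 17 kinases, factors and inhibitors were lower, where 6.08% of all genes were lower.

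Type 1 interferon genes were called in both directions. Of 12 such genes 3 were higher in muscle-rich GRDim water libraries, Ifit2 (LFC 3.14 ± 0.26), Ifit1 (1.35 ± 0.34) and Rsad2 (1.12 ± 0.27), and 1 was lower, Oas2 (-2.22 ± 0.61), where 4.62% of all genes were higher and 4.05% lower. Their median LFC was 0.01. Of 4 tested ligands and receptors of the other interferons 0 were called there. Ifit2 also fell with zinc in GRDim, with an LFC of -1.86 in muscle-rich and -2.68 in muscle-poor libraries, and in muscle-poor GRWT libraries (-1.88), and it was higher in GRDim on water in muscle-poor libraries (1.58 ± 0.28). Rtp4 rose with zinc in muscle-poor GRWT libraries (LFC 1.83 ± 0.54), where the median of the 12 genes was 0.73. It was the only 1 of the 12 called higher there, where 4.59% of all genes were. Between the genotypes on zinc, 3 of the 12 were higher in muscle-rich GRDim libraries (1.67% of all genes) and 5 were lower in muscle-poor ones (6.08%). The lists were not refitted without GRWT zinc ileum replicate 3.

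Macrophage markers were low in muscle-poor libraries, where Irf8 was not. In muscle-poor libraries the macrophage marker Adgre1 was at 0.0765 to 0.821 CPM and the sum of 14 macrophage and dendritic cell markers at 22.8 to 45.8 CPM, while Irf8 stood at 106 to 338 CPM. In muscle-rich libraries the sum of these markers was 174 to 306 CPM and Irf8 stood at 71.8 to 233 CPM. Batf3 was at or under 3 counts in every muscle-poor library, as was the NK cell marker Ncr1 of the T and NK list. The T and NK marker sum, by contrast, was not lower in muscle-poor libraries, at 172 to 565 CPM against 77.9 to 537 CPM.

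**Figure D5:**
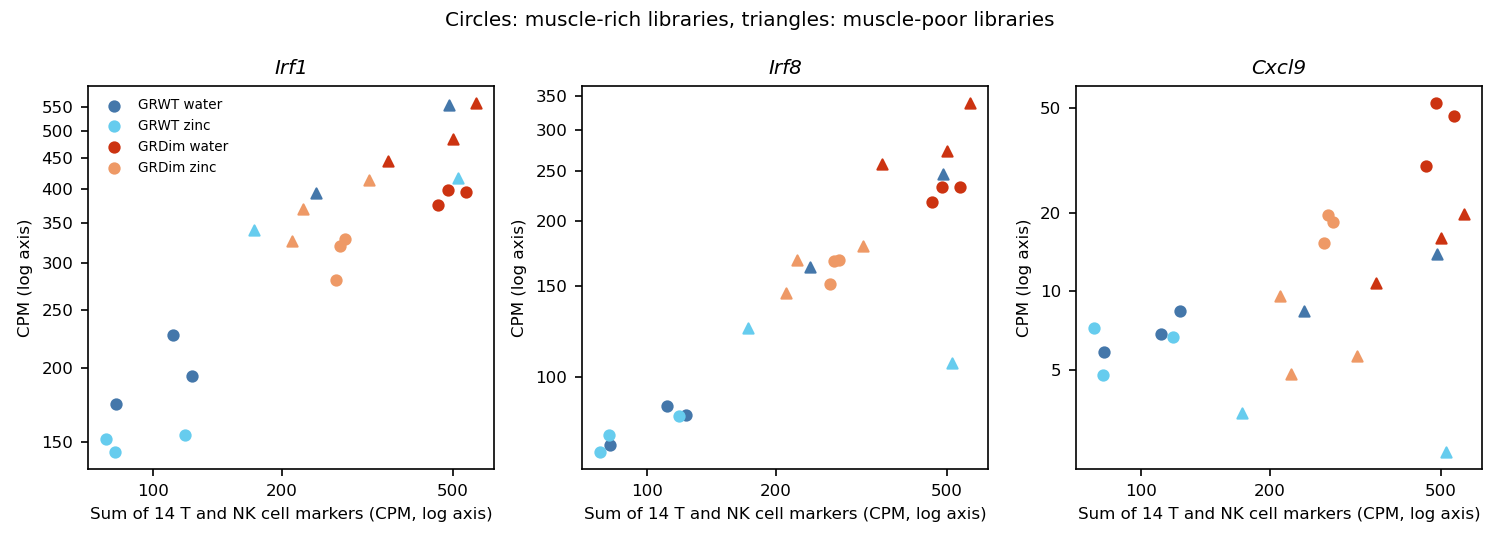
Level of Irf1, Irf8 and Cxcl9 in each library (log axis, CPM) against the summed level of 14 T and NK cell markers (log axis, CPM); circles are muscle-rich and triangles muscle-poor libraries. The 6 muscle-rich GRWT libraries lie lowest on both axes for Irf1 and Irf8, and GRWT zinc ileum replicate 3, at 513 CPM of markers (330 CPM by library total), has the lowest Cxcl9.

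After the mean of each muscle class was subtracted, the response genes varied together over the 22 libraries. As a description, the Pearson correlation of log2 CPM was 0.98 between Irf8 and Socs1, 0.95 between Irf8 and Cxcl9, 0.96 between Ifng and Irf8 and 0.90 between Cxcl9 and Cxcl10. Ifngr2 and Jak2 went together at 0.83, and Ifngr2 against Socs1 at -0.84. The genes most like Cxcl9 in this measure were the proteasome subunit Psma1 (0.97), Duoxa2, which matures an epithelial oxidase (0.96), the GTPases Tgtp2 and Irgm1 (0.96 each) and the necroptosis effector Mlkl (0.95). Those most like Irf1 were Usp16 (0.97), granzyme A, Gzma (0.96), the GTPases Igtp and Irgm2 (0.96 each) and Ccl5 (0.96). Without the subtraction the values for Cxcl9 were 0.61 for Psma1, 0.87 for Duoxa2, 0.90 for Tgtp2, 0.72 for Irgm1 and 0.69 for Mlkl. Those for Irf1 ran from 0.94 to 0.98. The libraries share genotype, drinking water and cell content within each condition, so these values say nothing of shared control.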

How the data were processed

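The authors made stranded single-end libraries, trimmed the reads, mapped them to mouse build mm10 with HISAT2 2.0.4 and counted reads per gene with featureCounts (submitters' processing notes and methods). The deposited table holds raw counts for 54838 genes, with no normalization. The annotation release and the strand setting are not given in the sources used here. Names and positions came from GENCODE vM21 (GRCm38). Of the GRDim water ileum columns 2 carry no number of their own (unnumbered a and b). No label assigns the 2 sequencing sets that the series text mentions. No 2 libraries held identical counts.

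The 9 genes, the gene lists and the muscle classes were chosen with earlier results of these data known. One model held 8 means (4 conditions by 2 muscle classes) over all 22 libraries, fitted with edgeR 4.0.16 in R 4.3.3 (TMM, filterByExpr, robust quasi-likelihood F tests). P-values were adjusted by Benjamini-Hochberg over 16389 genes. The standard error (SE) beside an LFC is the absolute LFC divided by the square root of its F statistic. It was not estimated by the model itself. Differences between comparisons needed only an adjusted p under 0.05. Counts of genes at an unadjusted p under 0.05 and of DESeq2 calls are given without the share of all genes, so they have no baseline. Alternatives were DESeq2 1.42.0 (the tool of the study), its size factors, other count filters, the tissue label or the muscle class as covariates, each class alone, a replicate block and fits without single libraries. Leaving out both GRWT zinc libraries that stood apart was chosen after seeing the data. All 9 genes were named whatever their result, and of each list at most 4 called genes per comparison, those with the lowest adjusted p (Serping1 was named after its value was seen). Likeness used log2 CPM with a prior count of 2. The fit was tested on simulated counts for GRDim against GRWT on water in muscle-rich libraries. Some genes of the lists are not reported here by name.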

Additional observations from a re-analysis of the deposited data

Results flagged for a closer look

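The genotype effect on water was larger in muscle-rich than in muscle-poor libraries for 5 of the 9 genes, with a tested difference in LFC of 0.91 for Irf1, 0.98 for Irf8, 1.92 for Socs1, 2.12 for Cxcl9 and 2.00 for Cxcl10. On zinc this difference was 0.82 for Jak2 and 1.08 for Irf1. Without both GRWT zinc libraries that stood apart, 0 genes passed on zinc. The muscle-rich and muscle-poor GRDim libraries also carry opposite tissue labels. With the label added to the fit, 2 of the 9 genes passed on water and 0 on zinc.

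Ifngr2 in GRWT zinc ileum replicate 3 stood apart from the other 4 libraries of GRWT on zinc, at 477 CPM, with a gap of 0.746 of the range of the condition on a log2 scale. Scaled by the library total it had 307 CPM and lay among the other 4 (295 to 314 CPM). On the TMM scale this was the only such sample in 36 gene and condition pairs. Each pair pools both muscle classes, so a chance rate of about 1 in 20, which holds for a single uniform group, does not apply.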

How the results depend on the processing

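The count of the 9 genes called was recomputed under each alternative, and the cause of the changes was not tested. GRDim against GRWT in muscle-rich libraries on water gave 6 calls in the main analysis and 6 in each fit without 1 library, and kept within 1.5 times of that under all other alternatives, though Irf1 (LFC 0.60) and Socs1 (1.52, adjusted p = 0.091) were not called with the tissue label in place of the muscle class. Zinc in muscle-poor GRWT libraries (3 calls) gave 0 with the muscle class or the tissue label as an additive covariate, with muscle-poor libraries alone, with the replicate block and without both GRWT zinc libraries that stood apart. Zinc in muscle-rich GRDim (1 call) gave 0 with DESeq2 size factors, with the tissue label added or alone and with the block, 2 with the additive muscle class and without both libraries, and 3 with DESeq2 or muscle-rich libraries alone. Zinc in muscle-poor GRDim (3 calls) gave 1 without a filter on low counts, 0 with the label added or alone, with muscle-poor libraries alone and with the block, and 5 without both libraries. GRDim against GRWT in muscle-poor libraries on water (0 calls) gave 5 with the additive muscle class and 4 with the label alone, since these fits give 1 value for both classes. On zinc, the 5 calls in muscle-rich libraries became 0 with the label alone and with the block. The 2 calls in muscle-poor ones became 1 without a filter, 4 with the additive muscle class, and 0 with the label added or alone, the class alone, the block and without both libraries. The difference between the classes on water (5) gave 2 with the label added and 0 with the block. On zinc (2) it gave 1 without a filter and 0 with the label added, the block and without both libraries. That of the zinc effect in GRWT (0) gave 1 with DESeq2. Fits below that leave out a muscle-poor GRWT library leave 1 library in its group, which is assumed to vary like the others.

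Fits without 1 library gave 0 to 4 calls for zinc in muscle-poor GRWT, 0 to 2 in muscle-rich and 0 to 5 in muscle-poor GRDim, and 0 in muscle-rich GRWT. They gave 0 to 1 for GRDim against GRWT in muscle-poor libraries on water, 5 to 6 in muscle-rich and 0 to 3 in muscle-poor ones on zinc. The differences gave 0 to 6 (water), 0 to 4 (zinc), 0 to 6 (zinc effect in GRWT by class), 0 in GRDim, and 0 to 3 for zinc by genotype in muscle-poor and 0 in muscle-rich libraries.

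The LFC of some uncalled genes changed sign. With zinc in muscle-rich GRWT, Jak2 was 0.16 and 0.18 with the additive muscle class and label, and Cxcl10 -0.21 and -0.18, also -0.18 without both libraries. In muscle-poor GRWT, Ifngr1 was 0.00559 with DESeq2 size factors, 0.00839 with DESeq2, 0.014 and 0.012 with the additive terms and 0.22 without both libraries, and Jak2 was -0.11 without both. In muscle-poor GRDim, Jak2 was 0.09 with either additive term (0.094). Between genotypes on zinc, Jak2 in muscle-rich libraries was 0.011 with the block. In muscle-poor ones Ifngr1 was -0.027 with DESeq2 size factors, -0.030 with DESeq2, -0.15 and -0.14 with the additive terms and -0.23 without both libraries. Irf1 was 0.55 and 0.62 with the additive terms, 0.050 with the block and 0.12 without both, and Cxcl10 0.50 and 0.49 with the additive terms. Without 1 library, zinc gave -0.19 to 0.48 for Cxcl10 in muscle-rich GRWT, -0.36 to 0.19 for Ifngr1 and -0.14 to 0.81 for Jak2 in muscle-poor GRWT, and -0.077 to 0.0081 for Jak2 in muscle-poor GRDim. GRDim against GRWT gave -0.16 to 0.33 for Irf1 in muscle-poor libraries on water and, on zinc, -0.083 to 0.020 for Jak2 in muscle-rich ones, and in muscle-poor ones -0.20 to 0.34 for Ifngr1, -0.16 to 0.15 for Irf1 and -0.39 to 0.061 for Cxcl10.

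The replicate block used the 20 numbered libraries. The numbers share no stated origin, and the correlation of deviations of same-numbered GRWT libraries was 0.06, -0.10 and -0.07 in muscle-rich and -0.01 in muscle-poor ones. Between the genotypes in muscle-rich libraries it was 0.14 and -0.06 on water and -0.06 on zinc. Ifng, with 0 to 34 counts a library, was the gene most limited by depth, and it was not tested under the filter of 50 counts.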
